A study of Ovis aries with 24 samples.

Results

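The ductus arteriosus was set against the ascending aorta in near-term fetal sheep, on 4 arrays of each vessel, which are 8 of the 24 arrays of the series. The arrays were chosen by title (ductus and aorta at 140 days), and the other labels give the age as 136 days of gestation, with full term at 145 days. The comparison therefore describes how the 2 vessels differed shortly before birth. The RNA came from whole vessel segments, and the labels name no treatment, genotype, breed or sex for any group. The study's other stages were preterm fetuses of 97 days (100 in the titles) and newborn lambs of 12 hours, again with 4 arrays per vessel, and they serve here to ask how the vessel difference compares at another age. Their arrays also enter the filter on dim probes and the estimate of the spread behind the near-term tests; with the 8 near-term arrays alone 40 probes were called instead of 161. The labels give 4 animals per group, taken after an overdose of a pentobarbital and phenytoin solution was given to the ewe or the newborn lamb. It is not given whether a ductus and an aorta came from the same animal, and the main fit does not pair them. The aortic segment is labelled ascending aorta, while the protocol places it next to the ductus.

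The ductus arteriosus joins the pulmonary trunk to the aorta and lets blood bypass the lungs before birth. Prostaglandin E2 and low oxygen tension keep it relaxed in the fetus, and after birth its smooth muscle contracts and its wall is remodelled until it closes, while the neighbouring aorta does not close. Endothelin-1 is a strong constrictor of vascular smooth muscle, activins and bone morphogenetic proteins (BMPs) are growth factors of one superfamily that act through SMAD proteins, and much of the smooth muscle of the great arteries near the heart descends from the neural crest.

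Values are log2 signal relative to the 75th percentile of the non-control spots of the same array, so that 0 is that percentile and a difference of 1 is a 2-fold difference in signal. They serve to compare the vessels probe by probe and not one gene with another. Of 15008 probes, 13997 passed the filter on dim probes (4 or more of the 24 arrays well above background) and were tested, and they include 768 genes with a symbol, each represented by its brightest probe. Spots well above background made up 66.2% to 94.4% of the ductus arrays and 70% to 92.7% of the aorta arrays. The spike-in detection limit given in the file headers was above 1.5 on ductus replicates 1 and 3 and on aorta replicates 2, 3 and 4, and under 1.5 on the other 3 arrays, which were also those with the fewest spots above background. The first principal component of the 8 arrays held 76.5% of their variance. Its scores were −124 and −131 on ductus replicates 2 and 4 and −55.2 on aorta replicate 1, against 2.12 to 100 on the other arrays, so the arrays with a limit under 1.5 lay together at one end of it, whichever vessel they came from. Correlations across probes were 0.888 to 0.977 within a vessel and 0.891 to 0.976 between vessels. All 8 arrays were on 1 slide, with the ductus in one column and the aorta in the other, so vessel and slide column cannot be told apart. CNN1, calponin of smooth muscle and the 1 smooth muscle marker tested, was well above background on every near-term array, as were 5 of 6 endothelial markers on all arrays of either vessel. Being seen in both vessels, these markers cannot check which array is ductus and which is aorta.

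The near-term ductus differed from the near-term aorta at 161 probes, which is 1.15% of those tested (limma's moderated test, adjusted p under 0.05, here termed a call). The ductus was higher at 95 of them (0.679%) and lower at 66 (0.472%); centring the arrays on the median instead left 37 higher and 12 lower. The count was 107, 70 and 94 without ductus replicates 2, 3 and 4 and 105, 90 and 93 without aorta replicates 1, 2 and 3. The median difference of the called probes was 2.32-fold among the higher and 2.26-fold among the lower ones, and 72 of the former and 44 of the latter exceeded 2-fold. At 94 of the 95 higher and 64 of the 66 lower probes the 4 ductus arrays all lay on one side of the 4 aorta arrays, against 3.61% and 2.74% of all tested probes. Probes called on these arrays are bound to be largely separated on them. The median difference over all tested probes was −0.116 on the log2 scale, and under median centring, quantile normalization and another background correction it was −0.028, −0.00815 and −0.0357. Gene values below are not shifted by it.

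Most of the called probes, 142 of 161, could not be tied to a gene symbol. Those with a symbol gave 12 genes by their brightest probe, 1.56% of the 768, with 10 higher (1.3%) and 2 lower (0.26%). In all 12 the vessels were separated on every array, against 4.69% of named genes with the ductus above and 2.6% with it below. The calls rest on the same arrays, so this separation adds no support to them. IL1A, PRLH, EDN1, TNFRSF11B, TPSB2, SNAI2, IGFBP2, INHBA, ANXA2 and CREM were higher in the ductus, and NPY1R and AQP3 were lower. They encode secreted signals and peptides (IL1A, PRLH, EDN1, INHBA), proteins that bind such signals outside the cell (TNFRSF11B, IGFBP2), a peptide receptor (NPY1R), a mast cell protease (TPSB2), transcription factors (SNAI2, CREM), a membrane-binding protein (ANXA2) and a water and glycerol channel (AQP3). In bulk tissue such as this, fewer cells of a type and less RNA per cell cannot be told apart.

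**Figure D1:**
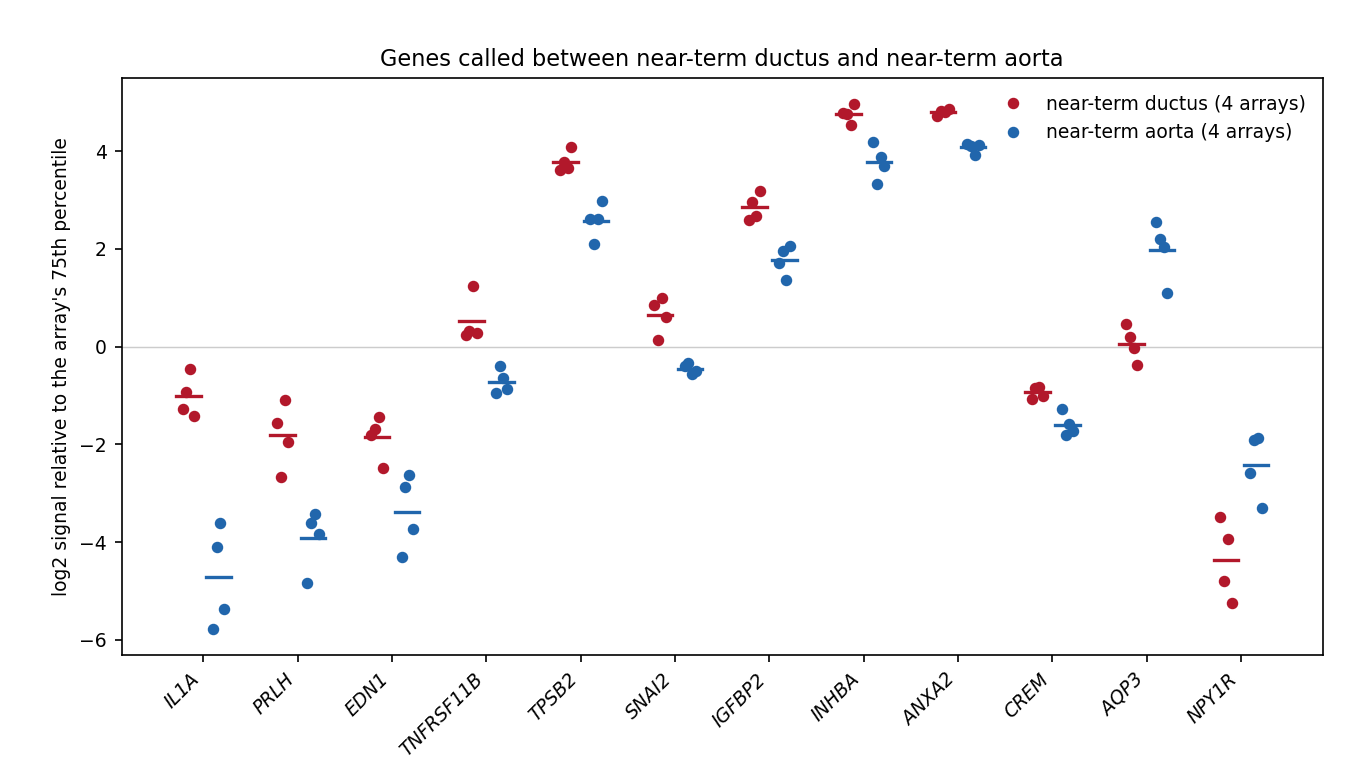
Signal of the 12 called genes on each of the 8 near-term arrays, as log2 relative to the array's 75th percentile (vertical axis); each point is 1 array and each bar the mean of 4. The ductus points lie wholly above the aorta points for 10 genes and wholly below them for AQP3 and NPY1R.

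IL1A, the cytokine interleukin-1 alpha, differed most among the called genes. It read −1.27, −0.93, −0.46 and −1.42 on the 4 ductus arrays and −5.78, −4.09, −3.60 and −5.36 on the 4 aorta arrays. All ductus arrays were far above all aorta arrays, and only 2 of the aorta arrays were well above background. The difference was 3.69 ± 0.73 (log2 ± SE, n = 4 per vessel; 12.9-fold; limma adjusted p = 0.0127), and the gene's second probe gave 3.40 (adjusted p = 0.0425). Without aorta replicate 1 the adjusted p was 0.0533, and without ductus replicate 3 it was 0.0587. The difference was 1.63 under normexp background correction with an offset of 50, which shrinks differences between dim spots.

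IL1A was the only call among 19 tested interleukins, chemokines and related cytokines. The other members of its own system did not pass: IL1B, its sister cytokine, differed by −0.64 ± 0.47 and IL1RN, the receptor antagonist, by −0.51 ± 0.94 (limma adjusted p = 0.934 for each). IL15, a growth factor of lymphocytes, had a difference of −1.53 ± 0.39 with no overlap of the arrays (adjusted p = 0.0632), and cleared the background on 2 of 4 ductus arrays and on all aorta arrays. Without ductus replicate 1 it was −1.83 (adjusted p = 0.0268). Genes without a call were refitted with each near-term array left out in turn. A call was gained in 9 of these fits, while 389 stayed without one and 10 changed sign. The gains given here and below are therefore a small part of the fits run. The median of the list was −0.51, beside −0.116 for all probes, with 14 members below 0; quantile normalization moved that median to 0.02, and it was 0.33 on the arrays with a detection limit above 1.5 and −0.84 on those under it.

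EDN1, which encodes the precursor of endothelin-1, read −1.82, −1.68, −1.44 and −2.48 in the ductus and −4.30, −2.88, −2.63 and −3.73 in the aorta. The lowest ductus array lay just above the highest aorta array. EDN1 was 2.89-fold higher in the ductus (1.53 ± 0.34, n = 4 per vessel; limma adjusted p = 0.0262). The adjusted p was 0.0554, 0.0818 and 0.115 without ductus replicates 1, 2 and 3, and 0.111 and 0.0868 without aorta replicates 1 and 4. With normexp the difference was 0.77.

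The enzyme and receptors of the endothelin system did not pass the test. ECE1, which cuts the precursor to the active peptide, differed by 0.22 ± 0.26. EDNRA, the constrictor receptor of smooth muscle, differed by −1.21 ± 0.87 and EDNRB, the second receptor, by −0.14 ± 0.50 (limma adjusted p = 0.934 and 0.961). A dimmer EDNRA probe gave −0.66 ± 0.34 with all ductus arrays below all aorta arrays (adjusted p = 0.727). With these errors the brightest probes of the 3 genes give no direction. The sign of EDNRB turned under quantile normalization, with array weights and with the class of detection limit as a covariate. It also turned on the arrays with a detection limit above 1.5, and its range spanned 0 with 1 array left out.

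NPY1R, the Y1 receptor of the sympathetic transmitter neuropeptide Y, was lower in the ductus. It read −3.49, −4.80, −3.93 and −5.25 in the ductus, where 3 of 4 arrays were well above background, and −2.59, −1.92, −1.87 and −3.30 in the aorta. The vessels did not overlap, although the highest ductus array lay within 0.2 of the lowest aorta array. The difference was −1.95 ± 0.34, or 3.86-fold (n = 4 per vessel; limma adjusted p = 0.005), and the second probe gave −2.16 (adjusted p = 8.57e-05). NPY1R was called without each of the 8 arrays in turn. With normexp its difference was −0.82 (adjusted p = 0.888). Its ligand NPY differed by 0.37 ± 0.72, which did not pass (adjusted p = 0.935).

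PRLH, the prolactin-releasing peptide, was higher in the ductus near term. It read −1.56, −2.68, −1.09 and −1.95 in the ductus and −4.83, −3.62, −3.42 and −3.83 in the aorta, where 3 arrays were well above background. No ductus array fell into the aortic range. PRLH was 4.30-fold higher in the ductus (2.11 ± 0.39, n = 4 per vessel; limma adjusted p = 0.00778) and was called without each array in turn, but with normexp the difference was 0.87 (adjusted p = 0.617). The array holds 1 tested probe of PRLH. Among the 16 vasoactive peptides and receptors tested, NPY1R and EDN1 were the calls, and among the 9 neuropeptides and pituitary-type hormones PRLH was.

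Among the angiotensin receptors of the vasoactive list, AGTR1 differed by −0.62 ± 0.37 and AGTR2 by 0.22 ± 0.56, and neither passed (limma adjusted p = 0.85 and 0.941).

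INHBA encodes the beta A subunit, which forms activin A as a pair with itself and inhibin A with the alpha subunit INHA. INHBA read 4.78, 4.75, 4.54 and 4.96 in the ductus and 4.18, 3.32, 3.88 and 3.69 in the aorta, with no overlap. It was 1.99-fold higher in the ductus (0.99 ± 0.20, n = 4 per vessel; limma adjusted p = 0.0181; second probe 1.00, adjusted p = 0.0239). The adjusted p was 0.0657 without ductus replicate 4 and 0.0802 without aorta replicate 2.

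INHA read −2.28, −1.58, −2.02 and −1.78 in the ductus and −2.95, −2.51, −2.86 and −2.68 in the aorta. All ductus arrays were above all aorta arrays, but the difference of 0.84 ± 0.24 did not pass (limma adjusted p = 0.114). FST and ACVR2A, like ECE1, NPY, IL1B, IL1RN and FLT1, were singled out as partners after their values were seen. FST, the secreted protein follistatin that binds activin, differed by 0.17 ± 0.38, and ACVR2A, an activin receptor, by 0.07 ± 0.25; neither passed (adjusted p = 0.939 and 0.958).

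Of the BMPs, BMP2 read −2.81, −2.39, −1.34 and −3.83 in the ductus and −4.04, −3.70, −3.57 and −4.94 in the aorta, and BMP6 read −1.0, −0.13, −0.15 and −0.43 against −2.50, −1.03, −0.99 and −0.99. In both genes 1 ductus array reached into the aortic range. The differences of 1.47 ± 0.48 and 0.95 ± 0.32 did not pass (limma adjusted p = 0.22 and 0.257). INHBA was the only call among the 25 tested genes of transforming growth factor beta, BMP and activin signalling. Of these 25 genes, 10 had a difference above 0, and their median was −0.145; it was 0.00299 with normexp and 0.00526 under quantile normalization.

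**Figure D2:**
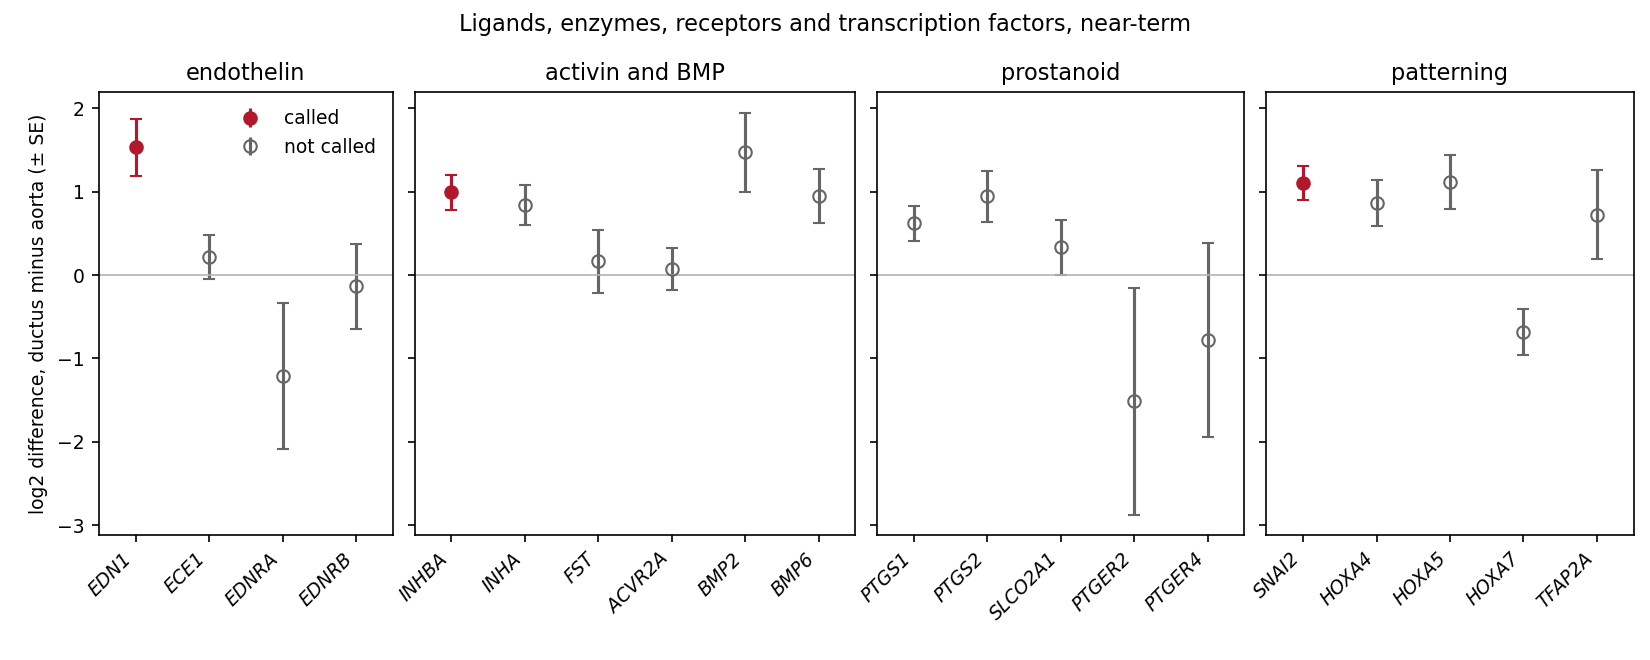
Differences of ligands, enzymes, receptors and transcription factors between near-term ductus and near-term aorta (vertical axis, log2 ± SE, 4 arrays per vessel); filled red points are called genes. EDN1, INHBA and SNAI2 are called at 1.53, 0.99 and 1.10, while the receptors EDNRA, EDNRB, PTGER2 and PTGER4 have wide errors.

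SNAI2, a zinc-finger repressor of the neural crest and of cells that leave epithelia, read 0.84, 0.14, 0.99 and 0.61 in the ductus and −0.41, −0.34, −0.56 and −0.50 in the aorta. The vessels were well apart, with the aorta arrays close together. SNAI2 was 2.14-fold higher in the ductus (1.10 ± 0.20, n = 4 per vessel; limma adjusted p = 0.00773; second probe 1.18, adjusted p = 0.0191) and was called without each array in turn.

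The homeobox genes that give cells their position along the body did not pass. HOXA5 read −1.78, −2.89, −1.45 and −1.81 in the ductus and −3.33, −3.07, −2.84 and −3.14 in the aorta, a difference of 1.11 ± 0.33 (limma adjusted p = 0.139). HOXA4 read 0.39, −0.61, 0.33 and −0.33 against −1.06, −0.95, −0.40 and −1.25 (0.86 ± 0.28, adjusted p = 0.22). HOXA7 read 0.08, −0.98, 0.24 and −0.21 against 0.28, 0.66, 0.13 and 0.80 (−0.69 ± 0.27, adjusted p = 0.429).

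In each of these 3 genes the vessels overlapped, with ductus replicate 2 lowest in the ductus. Without that array the adjusted p of HOXA5 was 0.0375 (1.42), 1 of the 9 such gains among genes without a call. HOXA4 was called under median centring (0.95, adjusted p = 0.0114) and with array weights. Over the 6 tested patterning genes SNAI2 was the 1 call, 5 members had a difference above 0, and the median was 0.79, beside −0.116 for all probes; under the other scalings it was 0.38 to 1.01. On the arrays with a detection limit under 1.5 it was 0.245, with 3 members above 0. TFAP2A, a transcription factor of the neural crest, differed by 0.72 ± 0.53 (adjusted p = 0.934) and was well above background on 3 ductus arrays and 1 aorta array.

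TNFRSF11B encodes osteoprotegerin, a soluble decoy receptor for RANK ligand. It read 0.24, 0.31, 1.25 and 0.27 in the ductus and −0.95, −0.39, −0.64 and −0.88 in the aorta. Ductus replicate 3 stood above the other ductus arrays, and the vessels did not overlap. The gene was 2.35-fold higher in the ductus (1.24 ± 0.26, n = 4 per vessel; limma adjusted p = 0.0191), but its dimmer second probe gave 0.88 ± 0.65 (adjusted p = 0.934). The adjusted p was 0.0903 without ductus replicate 3, and 0.0713 and 0.0565 without aorta replicates 1 and 4. TNFSF11, which encodes that ligand, differed by −0.93 ± 1.22 (adjusted p = 0.934).

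IGFBP2, a binding protein for insulin-like growth factors, read 2.60, 2.96, 2.67 and 3.18 in the ductus and 1.72, 1.97, 1.37 and 2.05 in the aorta, without overlap. It was 2.11-fold higher in the ductus (1.08 ± 0.26, n = 4 per vessel; limma adjusted p = 0.0425), while its second probe, at 0.96, had an adjusted p of 0.124. The call held without ductus replicate 1, whereas the adjusted p was 0.114, 0.0888 and 0.152 without ductus replicates 2, 3 and 4 and 0.115, 0.0793, 0.168 and 0.0532 without aorta replicates 1, 2, 3 and 4. IGFBP2 was the only call among 11 tested genes of the insulin-like growth factor axis, whose median was 0.21. IGFBP6, a related binding protein, also had all ductus arrays above all aorta arrays (0.58 ± 0.19, adjusted p = 0.247), and IGF1R, the receptor, differed by 0.58 ± 0.25 (adjusted p = 0.518).

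PGF, the placenta growth factor of the vascular endothelial growth factor family, gave unlike answers from its 2 probes. The brighter probe read −0.72, −1.48, −0.82 and −1.50 in the ductus and −4.13, −2.26, −2.27 and −3.11 in the aorta (1.82 ± 0.65, limma adjusted p = 0.305). The dimmer probe read −0.96, −1.44, −0.55 and −1.42 against −5.35, −3.32, −3.17 and −4.63 (3.02 ± 0.52, adjusted p = 0.005). Both probes had all ductus arrays above all aorta arrays, and only the dimmer one passed. The brighter one passed under quantile normalization (2.14, adjusted p = 0.0123), as did the mean of both probes (2.42, 0.0402). PGF was singled out after its values were seen. FLT1, the receptor that binds PGF, differed by −1.25 ± 1.26, and VEGFA by 0.82 ± 0.72 (adjusted p = 0.934 each). FGF2, a fibroblast growth factor, differed by 1.00 ± 0.44 (adjusted p = 0.519), and none of the 20 tested genes of the list of other growth factors and receptors was called.

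TPSB2, a tryptase stored in mast cell granules, read 3.61, 3.78, 3.65 and 4.09 in the ductus and 2.61, 2.09, 2.60 and 2.97 in the aorta. The vessels did not overlap. It was 2.32-fold higher in the ductus (1.22 ± 0.27, n = 4 per vessel; limma adjusted p = 0.0261; second probe 1.18, adjusted p = 0.0314). The adjusted p was 0.0646, 0.0683 and 0.1 without ductus replicates 2, 3 and 4 and 0.0648, 0.11 and 0.0724 without aorta replicates 1, 2 and 3.

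The other mast cell and eosinophil genes did not pass. FCER1A, the alpha chain of the high-affinity IgE receptor, read 0.31, 2.09, 1.55 and 1.38 in the ductus and −0.67, 0.05, 0.18 and 0.46 in the aorta (1.33 ± 0.39, limma adjusted p = 0.14; 1.67 and 0.0376 without ductus replicate 1, the lowest of its vessel). Its dimmer probe had no overlap (1.43 ± 0.38, adjusted p = 0.079). LGALS14, a galectin of sheep eosinophils, differed by −3.24 ± 1.11 (adjusted p = 0.264). The 6 tested mast cell and eosinophil genes had a median of −0.131, with 3 on either side of 0 (0.417 under quantile normalization and 0.106 with normexp), and their part in the TPSB2 result was not tested.

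ANXA2, annexin A2, and CREM, a transcription factor of cyclic AMP signalling, differed least among the called genes but with little spread. ANXA2 read 4.73, 4.82, 4.81 and 4.86 in the ductus and 4.15, 4.10, 3.93 and 4.13 in the aorta (1.65-fold; 0.73 ± 0.15, n = 4 per vessel; limma adjusted p = 0.0205). CREM read −1.06, −0.84, −0.83 and −1.02 against −1.27, −1.82, −1.59 and −1.73 (1.58-fold; 0.66 ± 0.15, adjusted p = 0.0282). Neither gene overlapped between the vessels. CREM was the only call among the 8 tested genes of nitric oxide and cyclic nucleotide signalling.

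Of the 3 other CREM probes, one gave 0.80 (limma adjusted p = 0.0593) and the other two, dim in both vessels, −0.43 and −0.01. Without ductus replicates 2, 3 and 4 and aorta replicates 2 and 3 the adjusted p of ANXA2 was 0.0555, 0.0683, 0.0655, 0.0579 and 0.0844, and that of CREM 0.0897, 0.112, 0.0619, 0.117 and 0.0795, with 0.0887 for CREM without aorta replicate 4. With the replicate number as a block they were 0.0555 and 0.0989.

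AQP3, a channel for water and glycerol, read 0.46, 0.19, −0.04 and −0.37 in the ductus and 2.56, 2.2, 2.04 and 1.09 in the aorta. All ductus arrays lay below all aorta arrays, of which replicate 4 was lowest. AQP3 was 3.77-fold lower in the ductus (−1.91 ± 0.44, n = 4 per vessel; limma adjusted p = 0.0343; second probe −1.96, adjusted p = 0.0212). The adjusted p was 0.0728, 0.108 and 0.124 without ductus replicates 2, 3 and 4 and 0.135, 0.106 and 0.101 without aorta replicates 1, 2 and 3. It was the only call among 17 tested aquaporins and solute carriers, of which 13 had a difference below 0 (6 of the 17 on the arrays with a detection limit above 1.5).

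The 12 calls depended on how the arrays were processed. Fitting the 8 near-term arrays alone left IL1A as the 1 call of the 12. Normexp background correction left IL1A, TPSB2 and TNFRSF11B, and median centring left IL1A, PRLH, NPY1R and EDN1. Averaging the probes of a gene ended the calls of CREM, IGFBP2 and TNFRSF11B, and the limit class as a covariate that of IGFBP2 (adjusted p = 0.0548). Quantile normalization and array weights kept all 12, and no difference changed sign under any alternative. Within the arrays with a detection limit above 1.5 (2 ductus, 3 aorta) and under 1.5 (2 ductus, 1 aorta) the differences were 3.49 and 4.60 for IL1A, 2.30 and 2.52 for PRLH, 1.45 and 2.22 for EDN1, 1.38 and 1.25 for TNFRSF11B, 1.08 and 1.32 for TPSB2 and 1.38 and 0.78 for SNAI2. They were 0.84 and 1.35 for IGFBP2, 1.03 and 0.67 for INHBA, 0.72 and 0.68 for ANXA2, 0.76 and 0.34 for CREM, −1.57 and −2.65 for AQP3 and −1.35 and −2.43 for NPY1R. None of the 12 was called within the first class. Within the second IL1A, PRLH and NPY1R were, but there the aorta is 1 array, assumed to vary like the other groups.

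Prostaglandin synthesis and response held no call. PTGS1, cyclooxygenase-1, read 2.07, 2.35, 2.02 and 2.02 in the ductus and 1.44, 1.34, 1.65 and 1.55 in the aorta, with no overlap (0.62 ± 0.21, limma adjusted p = 0.237). PTGS2, the inducible cyclooxygenase-2, read −1.58, −1.59, −2.25 and −1.50 against −2.19, −2.98, −3.11 and −2.42, with 1 ductus array in the aortic range (0.94 ± 0.30, adjusted p = 0.207). A dimmer PTGS2 probe gave −0.49 ± 1.13.

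The receptors of prostaglandin E2 that relax the vessel could not be resolved: PTGER4 differed by −0.78 ± 1.16 and PTGER2 by −1.51 ± 1.36 (limma adjusted p = 0.934 each), and PTGER4 was well above background on 3 arrays of each vessel, PTGER2 on 2 ductus and 3 aorta arrays. SLCO2A1, which carries prostaglandin into cells for breakdown, differed by 0.33 ± 0.33. The 10 tested genes of the list had a median of −0.166, but of 0.148 under quantile normalization, 0.00949 with normexp, 0.0678 with the limit class as a covariate and 0.568 on the arrays with a detection limit above 1.5. NOS3, the endothelial nitric oxide synthase, differed by 0.16 ± 0.35 (adjusted p = 0.936).

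The wall itself also gave no call in the main fit. The contractile list held 1 call, higher in the ductus, under quantile normalization and with normexp. The vessel wall matrix list held 1, also higher, under quantile normalization. CNN1 read 5.73, 6.22, 6.28 and 6.26 in the ductus and 5.26, 5.24 and 5.42 in the aorta, where the spot of replicate 3 was left out as an outlier spot; the vessels did not overlap (0.82 ± 0.21, limma adjusted p = 0.0781). With that spot kept the difference was 0.87 and passed (adjusted p = 0.0291), and without ductus replicate 1, the lowest, it was 0.95 (0.0424). Of the 23 genes of the contractile list 5 were tested, and MYH11 and ACTA2 had no probe under a symbol. VIM, vimentin, which is not particular to smooth muscle, is 1 of the 5. All 5 had a difference above 0. Their median was 0.30, and 0.29 to 0.42 under the other scalings. It was 0.68 on the arrays with a detection limit above 1.5 and −0.06 on those under it.

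DCN, the small matrix proteoglycan decorin, read 5.62, 6.28, 5.68 and 5.88 in the ductus and 4.89, 5.01, 4.27 and 5.31 in the aorta, with no overlap (0.995 ± 0.25, limma adjusted p = 0.0649; 1.14 and 0.0474 without aorta replicate 4). The other 5 tested genes of the vessel wall matrix, collagens among them, had differences between −0.69 and −0.21 by their brightest probes, and none was called. COL3A1, a chain of fibrillar collagen, had all ductus arrays below all aorta arrays in its dimmer probes (−1.04 and −1.11, adjusted p = 0.332 and 0.374). TIMP1, an inhibitor of matrix proteases, had all ductus arrays above all aorta arrays (0.49 ± 0.19, adjusted p = 0.409).

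Among the remaining genes chosen for description, ALDH1A1, which makes retinoic acid, read 0.29, 0.43, 0.33 and −0.05 in the ductus and −1.20, −0.39, −1.01 and 0.14 in the aorta (0.87 ± 0.26, limma adjusted p = 0.161). Aorta replicate 4 lay within the ductus range, and without it the difference was 1.12 (adjusted p = 0.0329). TLR4, the receptor for bacterial endotoxin, read −2.38, −3.24, −2.69 and −3.99 against −2.43, −2.06, −2.11 and −2.46 (−0.81 ± 0.27, adjusted p = 0.242). JAG1, BCAT1 and RCAN1 differed by −0.06, −0.32 and −0.69, none of them called. Of the 42 genes chosen for the ductus, 33 were tested, 10 were called, 10 had an unadjusted p under 0.05 without a call, and 13 did not reach it. Among all named genes 1.56% were called and 10.9% had an unadjusted p under 0.05; the 42 were chosen with earlier results of these data known, so nothing is read from that gap.

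All 19 tested ribosomal protein genes had a difference below 0, between −0.45 (RPL32) and −0.02, and none was called (limma adjusted p = 0.429 for RPL32). Their median was −0.276, beside −0.116 for all probes. It was −0.186 under median centring and −0.12 under quantile normalization, each with 1 gene above 0. B2M, the light chain of class I histocompatibility molecules, had all ductus arrays below all aorta arrays in both of its probes (−0.46 ± 0.17, adjusted p = 0.339), and all 5 tested genes of the histocompatibility complex had differences below 0, or 4 of 5 with normexp. On the arrays with a detection limit under 1.5, 4 of those 5 were above 0.

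Of the remaining lists none held a call. The 7 tested immediate early genes, which respond within minutes to stimuli, had 6 differences above 0 and a median of 0.389, and the 11 genes of the response to low oxygen and of glycolysis had 7 above 0 and a median of 0.178. The 15 genes of innate recognition and adhesion, the 9 of retinoid and glucocorticoid metabolism and the 6 of matrix turnover had medians of −0.0559, −0.0922 and −0.0915, near that of all probes; under quantile normalization those of the first and second were 0.0567 and 0.0668. The 10 antioxidant and survival genes had 8 differences below 0 and a median of −0.303, but 5 below 0 and −0.0165 under quantile normalization and 0.0583 on the arrays with a detection limit above 1.5.

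**Figure D3:**
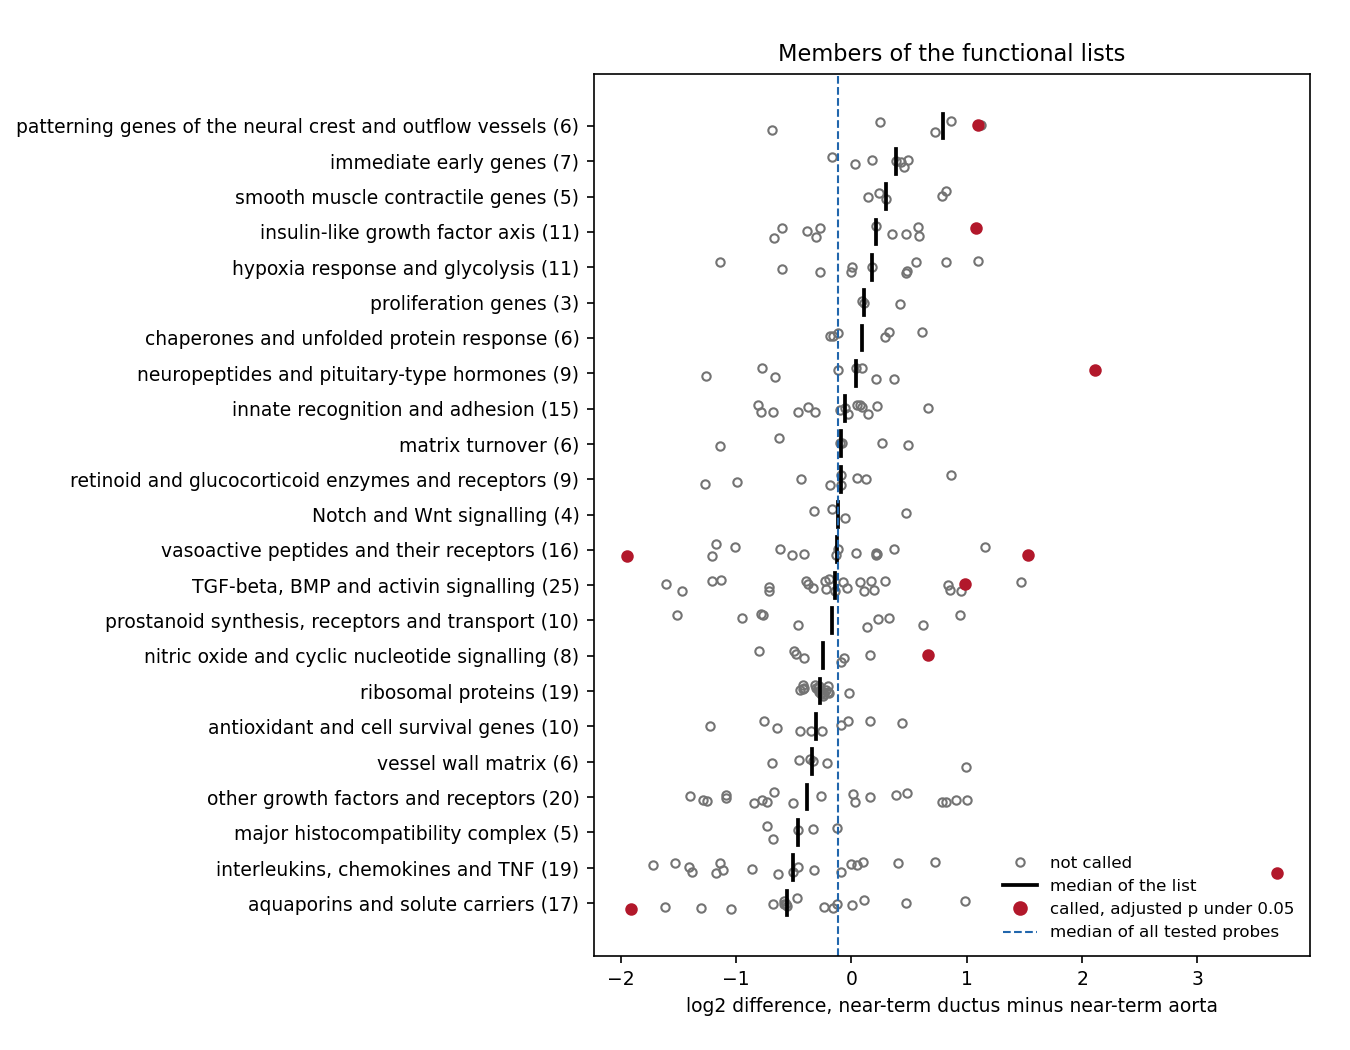
Log2 difference between near-term ductus and near-term aorta (horizontal axis) for each tested gene of the functional lists with 3 or more tested members (number in brackets); filled red points are called and black bars are list medians. The patterning list has the highest median (0.79) at this scaling, beside −0.116 for all probes. The aquaporins and solute carriers lie lowest here (−0.555), but not under quantile normalization (−0.181) or with normexp (−0.0282), where the histocompatibility list does (−0.447 and −0.386).

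HBB, the 1 tested red cell marker, and 4 of the 6 tested fat markers were highest on aorta replicate 4. The means of most marker lists, neutrophil, lymphocyte, striated muscle and epithelium among them, were lowest on the ductus arrays with a detection limit under 1.5. Outside these lists dim genes varied: PTGER2 read −7.89 and −7.19 on ductus replicates 2 and 4, against −2.34 and −3.01 on replicates 1 and 3. SLC7A5 of the solute carrier list was not low there, with −5.96 and −6.32 against −7.5 and −6.06. The part of the detection limit in the marker means was not tested. CXCR4, a brighter gene of the lymphocyte list, read −2.73 and −2.3 against −1.96 and −1.63. All 6 tested fat genes had differences below 0, with a median of −1.0, and none was called. Under quantile normalization 5 were below 0, and 2 of these were called lower in the ductus. LPL, the lipase that releases fatty acids at the vessel wall, read −2.17, −1.60, −2.40 and −3.92 in the ductus and −0.97, −1.35, −0.77 and 0.20 in the aorta (−1.80 ± 0.45, limma adjusted p = 0.0563). FABP4, a fatty acid carrier of fat cells, read −2.90, −2.84, −2.55 and −3.07 against −1.71, −1.31, −1.75 and 1.63 (−2.05 ± 0.55, adjusted p = 0.0857).

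In both genes the vessels did not overlap and aorta replicate 4 was the highest array. Averaged over the 6 genes, aorta replicate 4 stood at 0.105, against −2.45 to −1.92 on the other aorta arrays and −3.76 to −2.30 on the ductus arrays. LEP and PLIN1, named outside the rules to complete the list, were highest on ductus replicate 1 (−3.73 and −1.6) and read −4.28 and −2.03 on aorta replicate 4. UCP1, which marks brown fat and was singled out after its values were seen, was 3.23 on aorta replicate 4 and −3.93 to −0.85 on the others, and the haemoglobin gene HBB was 6.58 there and 2.25 to 3.89 elsewhere. Without that array the differences were −1.49 for LPL and −1.25 for FABP4 (adjusted p = 0.194 and 0.16), and without ductus replicate 2 that of LPL was −2.11 (0.035). The part of these markers in the other results was not tested.

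The 3 neutrophil genes tested, which encode antimicrobial cathelicidins of granules, had differences of −3.35 (CATHL1B), −3.03 (BAC5) and −2.74 (CATHL3), none called (limma adjusted p = 0.21, 0.307 and 0.457). Their mean was −7.25 and −7.14 on ductus replicates 2 and 4, where none was well above background, and −3.83 to −1.81 on the other ductus arrays, against −3.28 to −1.31 in the aorta. The 2 low arrays are also those of the ductus with a detection limit under 1.5, and the part of either in the result was not tested. On the arrays with a limit above 1.5 the median of the 3 genes was −0.68. Without ductus replicate 1 CATHL1B and BAC5 were at −4.34 and −4.18 (adjusted p = 0.0462 and 0.0403).

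None of the other marker lists held a call in the main fit, and no gene of the nerve and cartilage lists was tested. Fibroblast held 1 call, higher in the ductus, under quantile normalization. Averaged over its genes, striated muscle stood at −5.72 and −6.07 on ductus replicates 2 and 4, against −3.73 to −2.12 on the other arrays, and the lymphocyte list was lowest on those arrays and on aorta replicate 1 (−5.18 to −4.39, against −3.58 to −2.40). The medians of striated muscle, lymphocyte and epithelium were −1.12, −1.01 and −0.90, but 0.615, 0.0185 and 0.294 on the arrays with a detection limit above 1.5, and −0.137, −0.0821 and −0.292 with normexp. Fibroblast had a median of 0.67, which was −0.31 on the arrays with a limit under 1.5; endothelium and macrophage had medians of 0.12 and 0.10, with −0.187 for endothelium on those arrays and −0.0132 for macrophage with normexp.

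**Figure D4:**
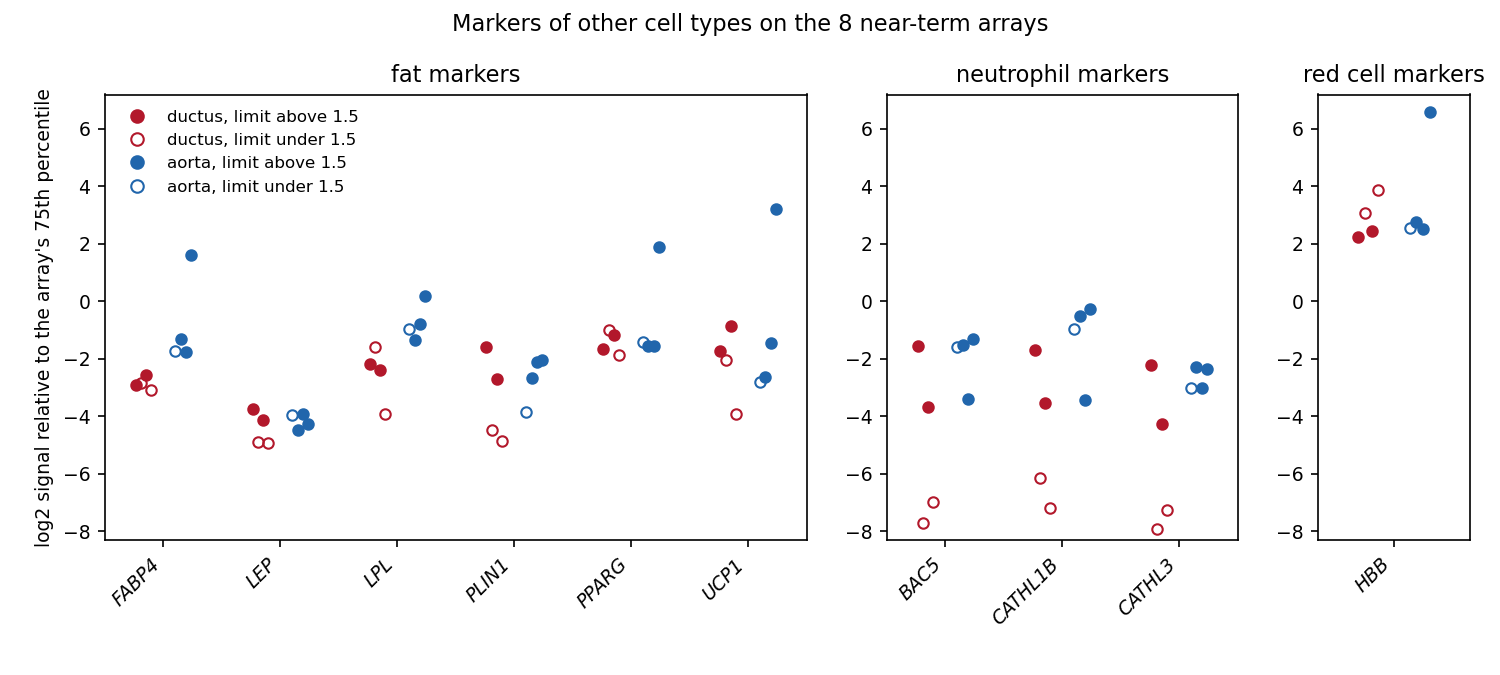
Fat, neutrophil and red cell markers on the 8 near-term arrays, as log2 signal relative to the array's 75th percentile (vertical axis); red is ductus, blue aorta, filled points have a detection limit above 1.5. UCP1, PPARG, FABP4 and HBB are highest on aorta replicate 4, and the cathelicidins are lowest on the 2 open ductus points.

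Among the called probes without a symbol, the largest rises were probe A_70_P000141, with 1.07 ± 1.12 (mean ± SD, n = 4) in the ductus against −5.41 ± 1.52 in the aorta (difference 6.49, limma adjusted p = 5.08e-05), and A_70_P013006, with 0.98 ± 0.88 against −3.69 ± 1.03 (4.67, 0.00238). The largest falls were A_70_P005511, with −0.54 ± 0.73 against 2.73 ± 1.02 (−3.26, 0.0039), and A_70_P065771, with −1.95 ± 0.28 against 0.53 ± 0.49 (−2.48, 0.00635). In the aorta, A_70_P000141 was well above background on 2 of 4 arrays and A_70_P013006 on 3 of 4.

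The near-term difference was then tested against the other 2 stages. The arrays of each stage were on a slide of their own. Stage and slide therefore cannot be told apart, in the levels or in the changes of the vessel difference given below. On every slide the ductus lay in one column and the aorta in the other. Agreement between stages therefore cannot tell vessel from slide column. Between near-term and preterm, no probe passed the test of a change in vessel difference (limma, 0 calls; 224 probes, 1.6%, at an unadjusted p under 0.05). That share is below the one this threshold gives on average without any change. With array weights 2231 probes reached it, again with 0 calls. The missing calls therefore do not show that the vessel differences of the 2 stages were alike. Among all tested probes 0.514% were higher and 0.193% lower in the preterm ductus and 5.15% and 4.97% in the newborn ductus. Of the 95 probes higher near term, 40 were also called preterm (42.1% of the near-term and 55.6% of the preterm calls) and 65 in the newborn (68.4% and 9.02%). For the 66 lower probes the counts were 15 (22.7% and 55.6%) and 44 (66.7% and 6.33%). The sign was the same in the preterm vessels for 95 of 95 and 65 of 66 probes and in the newborn for 89 of 95 and 64 of 66, while 22 higher and 19 lower probes were called near term only. The share with the same sign among all tested probes was not counted.

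Of the 12 genes, IL1A, EDN1, INHBA and NPY1R were also called in the preterm vessels, against 1.04% of named genes there. In the newborn 9 were called, all but INHBA, TPSB2 and PRLH, against 13% of named genes. IL1A differed by 4.08 preterm and 4.53 in the newborn, and EDN1 by 1.98 and 1.74, close to their near-term values.

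PRLH differed from the rest in size across stages: its vessel difference was 0.17 preterm, 2.11 near term and −0.39 in the newborn. In the ductus the level was −3.61 ± 0.70 preterm, −1.82 ± 0.67 near term and −4.30 ± 0.62 in the newborn (mean ± SD, n = 4), while the aorta stayed between −3.92 and −3.79. The near-term ductus arrays, at −2.68 to −1.09, were all above the preterm arrays, at −4.49 to −2.77, and above the newborn arrays, at −5.15 to −3.73. The difference between stages was 1.94 ± 0.55 against preterm (limma unadjusted p = 0.00226, adjusted p = 0.9999) and −2.50 ± 0.55 in the newborn against near term (adjusted p = 0.0524; 0.0126 to 0.0345 under 5 of the alternative settings and 0.0289 without near-term ductus replicate 2).

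INHBA's vessel difference of 0.99 near term was 0.04 in the newborn, a change of −0.95 ± 0.29 that did not pass (limma adjusted p = 0.255). TPSB2 was at 0.67 preterm and 0.34 in the newborn, and its changes did not pass either (adjusted p = 0.9999 and 0.564). ANXA2 and CREM had larger differences in the newborn, 1.39 and 1.14, again without a call for the change (0.32 and 0.569).

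**Figure D5:**
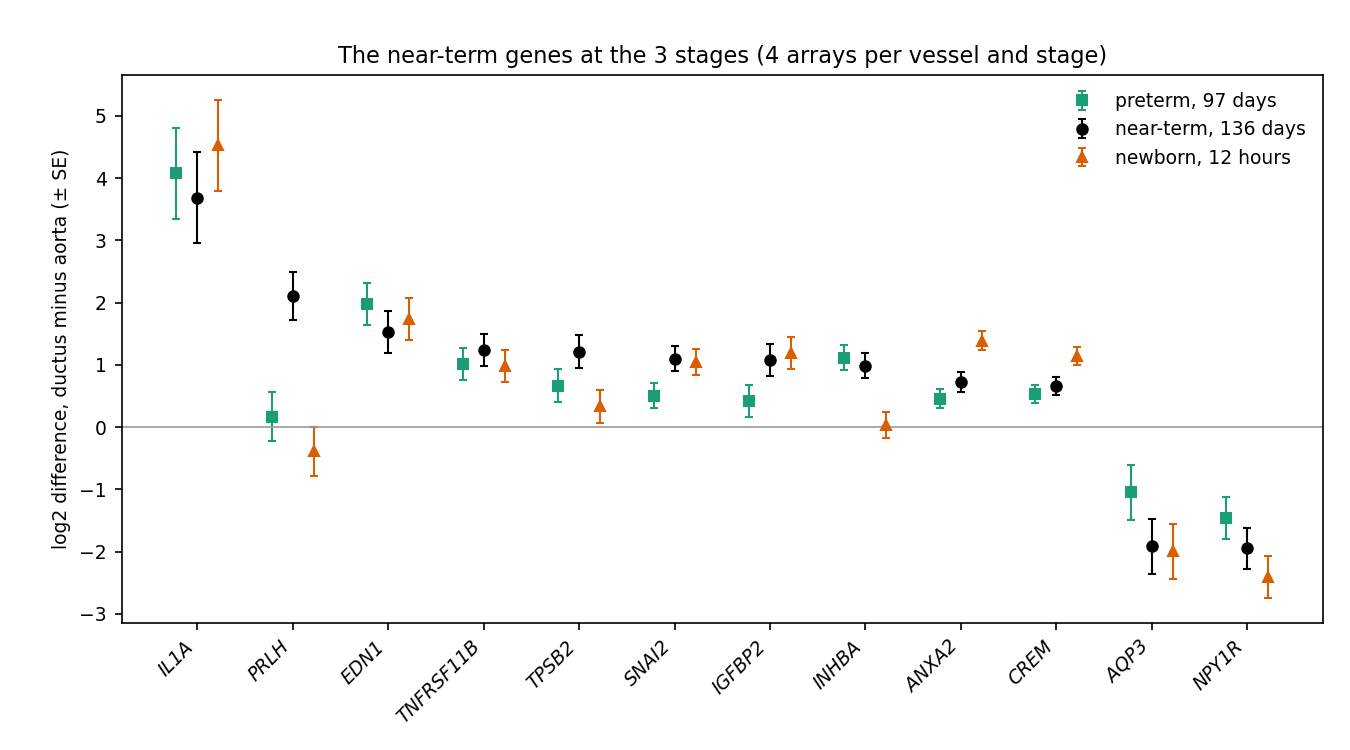
Log2 difference between ductus and aorta (vertical axis, ± SE, 4 arrays per vessel and stage) for the 12 near-term genes in preterm, near-term and newborn sheep. PRLH is apart from 0 only near term (2.11), INHBA is near 0 in the newborn (0.04), and IL1A and EDN1 stay between 3.69 and 4.53 and between 1.53 and 1.98.

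Between near term and the newborn, 55 probes changed their vessel difference (0.393%), 48 upward (0.343%) and 7 downward (0.05%), among them 11 named genes (1.43%). None of the 11 was called near term. IL6, an inflammatory cytokine, had the largest fitted change (5.85, limma adjusted p = 0.000427), which is no bound: it was not well above background on any aorta array of either stage, and on 1 of 4 ductus arrays near term. IL6 passed the filter on dim probes only through the newborn ductus, the group where it was high. The filter and the tested change therefore rest on the same arrays. Its newborn ductus arrays read −0.91 to 0.61, against a near-term ductus mean of −5.78. SLC2A3, a glucose transporter, went from a vessel difference of 0.48 to 4.28 (adjusted p = 0.000165), and PTGS2 from 0.94 to 4.36 (0.000268).

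The mitochondrial superoxide dismutase SOD2, with all ductus arrays below all aorta arrays near term, went from −0.64 to 2.51, the chitinase-like protein CHI3L1 from −0.17 to 2.94, the adhesion molecule SELP from 0.08 to 2.68, the pattern recognition protein PTX3 from −0.79 to 1.76 and the calcineurin inhibitor RCAN1 from −0.69 to 1.61 (limma adjusted p of the changes 0.000268, 0.0146, 0.0323, 0.00361 and 0.0343). Leaving out 1 near-term array ended the calls of SELP and RCAN1 in several cases with little change in size: SELP's adjusted p was 0.0531 to 0.0863 without ductus replicates 2 and 4 and aorta replicates 2, 3 and 4 (2.41 to 2.69), and RCAN1's 0.0546 to 0.0872 without ductus replicates 1 to 4 and aorta replicates 3 and 4 (2.11 to 2.37). MCL1, which protects cells from death, and TIMP1 also changed, from 0.44 to 2.18 and from 0.49 to 2.21 (adjusted p = 0.0131 and 0.0029). INHA moved the other way, from 0.84 near term to −0.77 in the newborn (change −1.60 ± 0.34, adjusted p = 0.0349). Its adjusted p was 0.0637 to 0.0977 without ductus replicates 2, 3 and 4 and aorta replicates 1, 3 and 4 of the near-term arrays. Its level in the aorta was −2.75 near term and −1.20 in the newborn, against −1.91 and −1.96 in the ductus. Several of these calls ended under another scaling: those of INHA, SELP and IL6 with normexp (adjusted p = 0.661, 0.503 and 0.182), those of INHA, SELP and PTGS2 under quantile normalization (0.193, 0.175 and 0.117) and those of INHA, MCL1, TIMP1 and RCAN1 under median centring (0.279, 0.228, 0.186 and 0.0947).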

How the data were processed

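Total RNA of 24 vessel samples was labelled with Cy3 and hybridised to 1-colour Agilent arrays. Per the file headers, the authors' deposited values are spot intensities from Agilent Feature Extraction 9.5.3.1; the intensity used here is the processed signal, already background-subtracted. Groups came from the array titles. Non-control spots without outlier flags were scaled to the array's 75th percentile, expressed as log2 and averaged per probe. Probes well above background on at least 4 of 24 arrays were tested with limma 3.58.1 (R 4.3.3), with 6 group means over 24 arrays and Benjamini-Hochberg adjustment over all tested probes. The script was tested on simulated data with independent noise. It called 35 of 100 changes of log2 size 1 and 63 of 100 of size 2, all in the right direction, with 7 false calls. A missing call therefore does not show that the vessels were equal. A gene is represented by its brightest probe. Symbols came from the arrays and RefSeq's gene table, with some set by hand (PRLH, PGF and TPSB2 from the array's PRRP, PLGF and tryptase-1), and 1435 of 15008 probes had one.

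Genes were named if called, if among 42 chosen for the ductus, if among the 3 smallest p of a described list (not all of these are given), or if among the 8 largest changes between stages; unnamed probes were the 2 largest rises and falls without overlap. Genes named outside these rules are said to be so. Members and lists were chosen with earlier results of these data known. The number of arrays limits the precision.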

Additional observations from a re-analysis of the deposited data

Results flagged for a closer look

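Among 125 groups of 4 near-term arrays looked at, 8 had 1 array far from the other three of its vessel, and chance alone gives about 1 in 20. These were TNFRSF11B on ductus replicate 3 (1.25), PTGS2 on ductus replicate 3 (−2.25), NOS3 on ductus replicate 2 (−1.01), CNN1 on ductus replicate 1 (5.73), BMP6 on aorta replicate 1 (−2.50), PTX3 on aorta replicate 2 (−1.19), BAC5 on aorta replicate 3 (−3.40) and FABP4 on aorta replicate 4 (1.63), all as log2 signal relative to the array's 75th percentile.

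The vessel difference itself changed between near term and the newborn, by limma's test of the change, for IL6 (5.85), SLC2A3 (3.80), PTGS2 (3.42), SOD2 (3.15), CHI3L1 (3.11), SELP (2.61), PTX3 (2.55), RCAN1 (2.31), MCL1 (1.74), TIMP1 (1.72) and INHA (−1.60), as log2 differences of newborn minus near term. IL6 passed the filter on dim probes only through the newborn ductus arrays, where it was high. The stages were on separate slides, so stage and slide cannot be told apart here.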

How the results depend on the processing

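Called probes numbered 161 near term. They numbered 50 with normexp, 49 with median centring, 40 with the near-term arrays fitted alone, 409 with array weights, and 944 and 11 within the classes of detection limit under and above 1.5 (the first holds 1 aorta array, assumed to vary like the other groups); they stayed within 1.5 times of 161 with quantile normalization, either filter, flagged spots kept or the limit class as a covariate, and ran from 70 to 156 with 1 array left out. For the vessel difference between near term and preterm the count was 13 and 1 within the limit classes and 0 under every other setting run. Between newborn and near term, where it was 55, it was 33 with median centring, 130 with array weights and 153 within the class under 1.5, and could not be fitted above 1.5, where no newborn ductus array lies; with 1 array left out it was 40 to 53. Replicate numbers are shared by the groups, and it is not given whether vessels of 1 number came from 1 animal. The deviations of same-numbered near-term arrays correlated at −0.583, −0.204, 0.821 and 0.31, and 1 of 4 ductus arrays correlated best with its own number. These correlations cannot decide the pairing, since the arrays also differ in detection limit. Replicate 3 was above 1.5 in both vessels, and replicates 1, 2 and 4 were in unlike classes. With the replicate number as a block the counts were 263, 0 and 89. No called gene reversed. Of the genes without a call, the difference changed sign under quantile normalization for EDNRB (0.31), IL1RN (0.0194) and SLC7A5 (0.0267), with median centring for JAG1 (0.0334), with array weights for EDNRB (0.286), IL1RN (0.0605), AGTR2 (−0.00649) and FST (−0.125), with the limit class as a covariate for EDNRB (0.137) and IL1RN (0.0369), with probes averaged for ACVR2A (−0.434), on arrays above 1.5 for EDNRA (0.177), EDNRB (0.434), PTGER2 (0.405), PTGER4 (0.675), FLT1 (0.0454), IL1RN (0.565) and FST (−0.144), and under 1.5 for AGTR1 (0.218), AGTR2 (−0.558), TFAP2A (−0.213), ACVR2A (−0.401) and ECE1 (−0.0435). With 1 array left out the range spanned 0 for EDNRB (−0.347 to 0.169), AGTR2 (−0.0272 to 0.542), JAG1 (−0.147 to 0.128), PTGER4 (−1.43 to 0.107), NOS3 (−0.129 to 0.462), NPY (−0.0453 to 0.924), FST (−0.0633 to 0.41) and ACVR2A (−0.0365 to 0.177). The cause of these changes was not tested. Signal over background limits the dim probes.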
